A study of Mus musculus with 12 samples.

Results

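The genes Hba-a1, Hba-a2, Hbb-b1, Hbb-b2, Alas2 and Bpgm were followed as a set of hemoglobin and erythroid genes in the cerebral cortex of lupus-prone and control mice. They are 6 of the 29608 gene names carried by the non-control probes of the array, and each is read by 1 probe. They were chosen because blood genes lay higher in MRL/lpr cortex than in the cortex of both other groups, so every value of these 6 genes in MRL/lpr against either group is given here as a description with no test. For the 6 genes only Fn14ko against MRL/+ was tested, and the mice of both of those groups had also served in the choice. In the data the label held for Hba-a1, Hba-a2, Hbb-b2 and Alas2, whose group means were highest in MRL/lpr, held weakly for Hbb-b1, and did not hold for Bpgm, which was highest in Fn14ko.

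Hemoglobin is a tetramer of paired alpha and beta globin chains, each holding a heme, and is made in bulk by red cell precursors in marrow and spleen. Alas2 is the erythroid enzyme that starts heme synthesis and sets its rate, and Bpgm makes bisphosphoglycerate, the small molecule that lowers the affinity of hemoglobin for oxygen. Young red cells (reticulocytes) keep globin mRNA after losing their nucleus, so whole brain tissue that still holds blood carries it, and low globin expression has also been described in brain cells.

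The cortex of 12 adult female mice was profiled, 4 per group, all on the MRL background and all killed at diestrus. MRL/lpr mice carry the lpr loss-of-function mutation of Fas, a death receptor, and develop a lupus-like disease. Fn14ko mice lack Tnfrsf12a (Fn14, the receptor of the cytokine TWEAK), carry lpr as well, and were littermates of the MRL/lpr mice from a backcross, both bred at one company. MRL/+ mice (MRL/MpJ) carry neither change and were bought from another supplier, so strain source and genotype cannot be told apart in comparisons with MRL/+. The comparisons ask how the lupus-prone cortex differs from the background strain, and what changes when Fn14 is also missing. The methods name no perfusion of the brain before dissection. In such bulk tissue a change in the number of red cells and a change in RNA per cell cannot be told apart.

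A pair of mice from 1 group shared every array, with Cy3 on replicates 1 and 3 and Cy5 on replicates 2 and 4. No slide carried more than 1 group, and a slide effect and a group effect cannot be told apart. The median spot foreground of the 12 mice ran from 138 to 273 over a median local background of 21 to 34.5. Between 56.6% and 70.03% of the 43020 non-control spots were well above background in 10 mice, against 35.0% and 21.2% in MRL/+ replicates 2 and 4. In MRL/lpr 2355 spots were well above background in both mice of 1 array and in neither mouse of the other, against 113 in Fn14ko and 62 in MRL/+. The 9 listed markers of cortical excitatory neurons were all quantified, and in MRL/lpr against MRL/+ limma called 3 lower (Neurod6, Slc17a7 and Neurod2) and 1 higher (Tbr1). Summed oligodendrocyte markers were 51.5 to 77.8 in MRL/lpr, 83.7 to 106.5 in Fn14ko and 74.7 to 95.9 in MRL/+. Summed striatal markers were 170.7 in Fn14ko replicate 1 and 11.5 to 43.8 in the other mice. Summed choroid plexus markers were 7.74 to 102.0 in MRL/lpr, 14.2 to 185.8 in Fn14ko and 18.6 to 269.8 in MRL/+, with Clic6 lower in MRL/lpr than in both other groups (adjusted p = 0.0486 over MRL/+ and 0.0494 over Fn14ko by limma). Of 10 microglial markers Siglech was higher in MRL/lpr than in MRL/+ (1.08 ± 0.285, adjusted p = 0.0263) and Fn14ko (2.16 ± 0.285, adjusted p = 0.00141), and Aif1 than in MRL/+ (1.17 ± 0.312, adjusted p = 0.0271). The part of these differences in the globin values was not tested. Tnfrsf12a was lowest in the Fn14ko mice (0.604 to 0.777), between these in MRL/+ (0.943 to 1.28) and highest in MRL/lpr (1.39 to 1.90), and it stayed well above background in all 4 Fn14ko mice. Whether its probe lies within the deleted part was not given in the sources used here. Signals are background-corrected spot intensities in units of the sample's own median spot, and 17302 genes passed the filters, the 6 genes included. Levels of different probes are not comparable, and the 4 samples per group are separate mice.

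The probes decide which globin copy is read, so they are shown first. The Hba-a1 probe lies at chr11:32183955-32184014 on the plus strand of mm9, from transcript base 161, in the coding part of the alpha globin message. The Hba-a2 probe lies at chr11:32197245-32197304, from transcript base 497, at the end of the message, and its printed stretch holds the polyadenylation signal, in capitals. Both list the RefSeq transcripts of Hba-a1 and Hba-a2, so neither tells these near-identical copies apart, and they read different ends of the same messages. The Hbb-b1 probe lies at chr7:110976379-110976438 on the minus strand, from transcript base 5, and its stretch holds the start codon and the next codon in capitals. It lists Hbb-b1 and Hbb-bs, and 46 of its bases run unbroken in the start region of Hbb-bs. The Hbb-b2 probe, from transcript base 215, is unmapped in the array's annotation and lists Hbb-b1 and Hbb-b2. The names Hbb-b1 and Hbb-b2 belong to one haplotype of the adult beta globin locus and Hbb-bs and Hbb-bt to another. The whole Hba-a1 and Hbb-b2 probes and 30 bases of the other globin probes read, 5′ to 3′ in the sense of the message:
Hba-a1: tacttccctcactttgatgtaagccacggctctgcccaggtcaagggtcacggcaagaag
Hba-a2: acctcttggtctttgAATAAAgcctgagta
Hbb-b1: caaccccagaaacagacatcATGGTGcacc
Hbb-b2: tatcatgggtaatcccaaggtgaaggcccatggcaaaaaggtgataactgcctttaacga

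No pair of these 4 globin probes shared a run of more than 7 bases. The remaining probes read single genes: Alas2 at chrX:147004993-147005052 from transcript base 1806, and Bpgm at chr6:34454792-34454851 from transcript base 1249, both on the plus strand. None of the 6 spots was saturated in any mouse. All 6 were well above background in all 12 mice except Alas2, which was not in MRL/+ replicates 2 and 4.

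Hba-a1, an adult alpha globin chain, had its highest group mean in MRL/lpr and its lowest in MRL/+. Its signal was 149, 225, 172 and 88.8 in the MRL/lpr mice (replicates 1 to 4), 51.1, 85.7, 91.4 and 32.1 in the Fn14ko mice, and 31.2, 25.3, 41.3 and 22.0 in the MRL/+ mice. Every MRL/lpr mouse was above every MRL/+ mouse, and 3 of the 4 were above every Fn14ko mouse, with MRL/lpr replicate 4 just under the top Fn14ko mouse. The fitted log2 difference of MRL/lpr over MRL/+ was 2.37 ± 0.434 (SE, n = 4 per group), or 5.17-fold. Over Fn14ko it was 1.33 ± 0.434, or 2.51-fold. Fn14ko over MRL/+ was 1.04 ± 0.434, or 2.06-fold, with 3 of 4 Fn14ko mice above all MRL/+ mice. That difference did not pass limma's test after Benjamini-Hochberg adjustment over all 17302 genes (adjusted p = 0.198, unadjusted p = 0.0324), and the 2-sided exact permutation test over the 8 mice gave p = 0.0571. With a replicate block in place of the dye term it passed (limma adjusted p = 0.0295).

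Hba-a2, the second adult alpha globin gene, followed the same order of groups with more scatter. Its signal was 73.8, 409, 177 and 125 in the MRL/lpr mice, 71.1, 85.2, 115 and 52.4 in the Fn14ko mice, and 41.5, 42.2, 62.3 and 66.7 in the MRL/+ mice. All MRL/lpr mice were above all MRL/+ mice, but the lowest MRL/lpr mouse lay among the Fn14ko mice. Local background at this spot was 52.5 and 115 in MRL/lpr replicates 1 and 2, which share an array and are the lowest and the highest mouse of their group, and at most 42.5 in the other mice; its part in the scatter was not tested. The log2 difference of MRL/lpr over MRL/+ was 1.63 ± 0.561 (3.09-fold), and over Fn14ko 1.05 ± 0.561 (2.07-fold). Fn14ko exceeded MRL/+ by 0.58 ± 0.561, which did not pass limma's test (adjusted p = 0.50; exact permutation p = 0.114).

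Hbb-b2, an adult beta globin chain, was the gene that set MRL/lpr apart from both other groups. Its signal was 49.5, 71.3, 59.6 and 27.0 in the MRL/lpr mice, 14.8, 12.5, 25.4 and 6.79 in the Fn14ko mice, and 9.38, 7.55, 14.96 and 9.78 in the MRL/+ mice. The lowest MRL/lpr mouse was above the highest mouse of both other groups, while Fn14ko and MRL/+ overlapped widely. MRL/lpr was 2.28 ± 0.416 higher than MRL/+ on the log2 scale (4.84-fold) and 1.87 ± 0.416 higher than Fn14ko (3.65-fold). The Fn14ko minus MRL/+ difference was 0.41 ± 0.416 (adjusted p = 0.526 by limma; exact permutation p = 0.429).

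Hbb-b1, the other beta globin name, behaved differently. Its signal was 4.86, 2.75, 5.42 and 1.84 in the MRL/lpr mice, 1.82, 1.30, 2.56 and 0.410 in the Fn14ko mice, and 2.76, 1.66, 5.01 and 1.82 in the MRL/+ mice. MRL/lpr and MRL/+ overlapped, and Fn14ko was the lowest group, so the order of groups was MRL/lpr, MRL/+, Fn14ko. The log2 difference of MRL/lpr over MRL/+ was 0.42 ± 0.395 (1.34-fold), and over Fn14ko 1.44 ± 0.395 (2.71-fold). The Cy3 mice of each group had 2.24 to 2.57 times the mean signal of the Cy5 mice. Each dye was carried by different mice, and the part of the dye in the overlap was not tested. Within the Cy5 mice both MRL/lpr mice were above both MRL/+ mice (log2 difference 0.38), and within the Cy3 mice the groups overlapped (0.46). Fn14ko minus MRL/+ was -1.02 ± 0.395, a ratio of 0.494, with both Fn14ko mice below both MRL/+ mice within each dye. The difference did not pass limma's test (adjusted p = 0.179, unadjusted p = 0.0231), and the exact permutation test gave p = 0.229. It passed the adjusted threshold in 3 other treatments of the background and dim spots and with a replicate block.

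Alas2, the heme synthesis enzyme, was a dim spot with the same order as the alpha globins. Its signal was 1.204, 1.70, 2.31 and 0.716 in the MRL/lpr mice, 0.845, 0.781, 1.28 and 0.339 in the Fn14ko mice, and 0.541, 0.597, 0.440 and 0.496 in the MRL/+ mice. All MRL/lpr mice were above all MRL/+ mice, 2 of them were above all Fn14ko mice, and Fn14ko replicate 4 was the lowest of the 12. With 2 of its 4 MRL/+ spots not well above background, its MRL/+ level depends on the background correction, and with Agilent's processed signal MRL/lpr over MRL/+ was 2.28 and Fn14ko over MRL/+ 1.175. With normexp correction the differences were 1.40 ± 0.475 on the log2 scale for MRL/lpr over MRL/+ (2.63-fold) and 0.89 ± 0.475 over Fn14ko (1.85-fold). Fn14ko over MRL/+ was 0.51 ± 0.475 (adjusted p = 0.487 by limma; exact permutation p = 0.286). Its direction differed by dye, at 1.095 within the Cy3 mice and -0.08 within the Cy5 mice.

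Bpgm, the bisphosphoglycerate enzyme, is also expressed outside the red cell and had a pattern of its own. Its signal was 3.99, 5.11, 4.48 and 4.63 in the MRL/lpr mice, 4.49, 5.98, 4.92 and 5.34 in the Fn14ko mice, and 3.77, 3.77, 3.75 and 3.73 in the MRL/+ mice. The MRL/+ mice lay within 1.01-fold of each other, below every mouse of both lpr groups, and the lpr groups overlapped with Fn14ko the higher. MRL/lpr over MRL/+ was 0.27 ± 0.163 on the log2 scale (1.21-fold), and this difference changed sign under 2 other normalizations. MRL/lpr minus Fn14ko was -0.18 ± 0.163. Fn14ko over MRL/+ was 0.46 ± 0.163 (1.37-fold), with all 4 Fn14ko mice higher. The exact permutation test gave p = 0.0286, the smallest that 4 against 4 mice allow, and limma's adjusted p was 0.158 (unadjusted p = 0.0149).

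**Figure D1:**
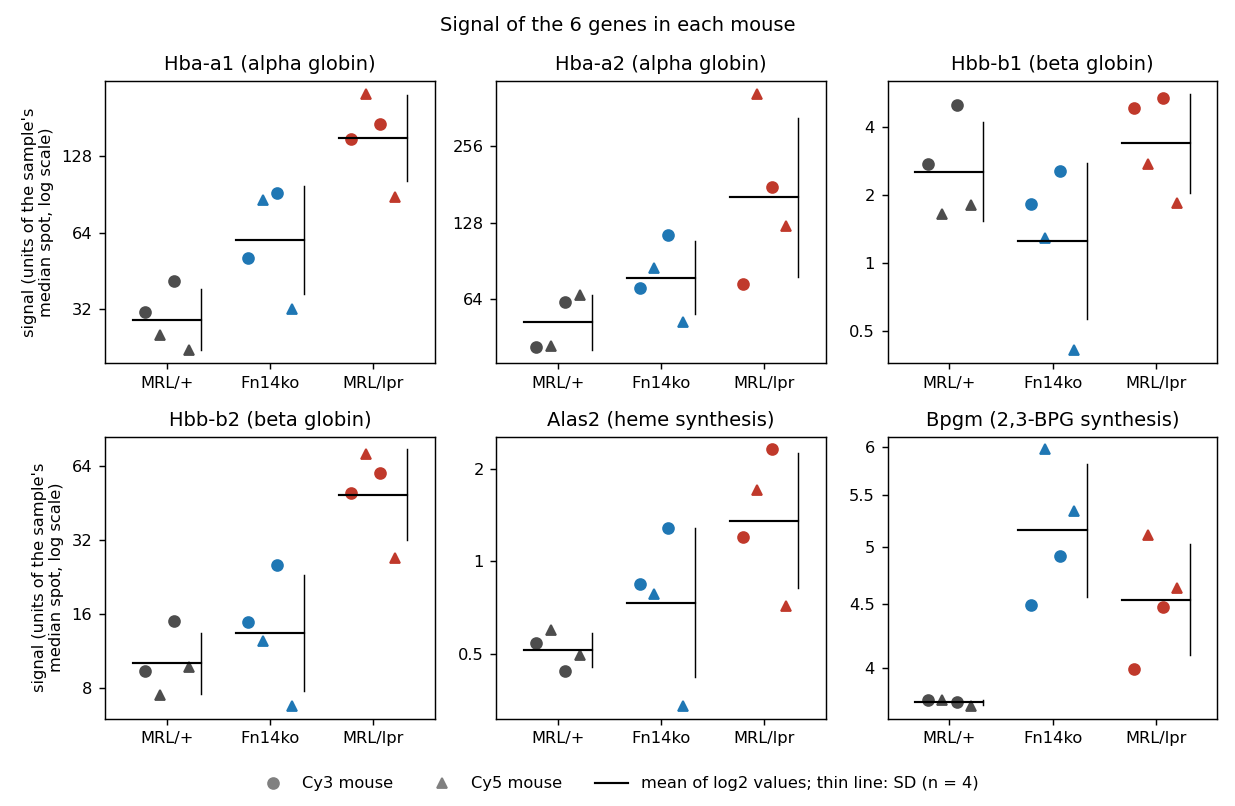
Signal of the 6 genes in each of the 12 mice (vertical axis, log scale, in units of the sample's median spot), with circles for Cy3 and triangles for Cy5 mice, a bar at the mean of the log2 values and a thin line of 1 SD (n = 4). The Hbb-b2 panel shows all 4 MRL/lpr mice (27.0 to 71.3) above all other mice, and the Bpgm panel shows MRL/+ (3.73 to 3.77) below both other groups.

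Across the 6 genes, MRL/lpr lay wholly above MRL/+ for 5, all but Hbb-b1. Over all 17302 genes 10.8% had MRL/lpr wholly above MRL/+, and 6.03% were called higher and 8.37% lower by limma. MRL/lpr lay wholly above Fn14ko for 1 gene, Hbb-b2, where the share over all genes was 8.91%, with 2.58% called higher and 1.99% lower. Nothing is read from these counts, because the genes were chosen on these contrasts. Fn14ko lay wholly above MRL/+ for 1 of 6 genes, Bpgm, against 7.42% of all genes. By limma none of the 6 passed the adjusted threshold for Fn14ko against MRL/+, where 0.237% of all genes were called higher and 0.717% lower. At an unadjusted p under 0.05 limma gave 3 of 6 (Hba-a1, Hbb-b1 and Bpgm), where 21.9% of all genes passed in either direction. The methods' t-test gave 1 of 6 unadjusted (Bpgm), where 15.2% of all genes passed, and 0 adjusted.

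Over the 4 globin genes the median log2 difference was 1.95 for MRL/lpr over MRL/+ (3.87-fold, range 0.42 to 2.37), beside a median of -0.11 over all genes. For MRL/lpr over Fn14ko it was 1.38 (2.61-fold, range 1.05 to 1.87) beside -0.07. For Fn14ko over MRL/+ it was 0.49 (range -1.02 to 1.04) beside -0.10. The mice differed within groups by as much as some groups differed. Set against the MRL/+ mean, the mean log2 globin signal was higher by 1.52, 2.22, 2.00 and 0.96 in the MRL/lpr mice. It was 0.34, 0.40, 1.03 and -0.76 from that mean in the Fn14ko mice, and -0.05, -0.39, 0.58 and -0.14 in the MRL/+ mice. MRL/lpr replicate 4 was thus below Fn14ko replicate 3, and Fn14ko replicate 4 was the lowest of all 12 mice. Dye did not reorder the main contrast for the alpha globins and Hbb-b2. Within Cy3 mice alone, MRL/lpr exceeded MRL/+ by 2.16 for Hba-a1, 1.17 for Hba-a2 and 2.20 for Hbb-b2, and within Cy5 mice by 2.58, 2.09 and 2.35, with no overlap in any of these. Each of these sets only 2 mice against 2, and the share of all genes separated within a dye was not counted. The genes were chosen on this contrast, so nothing is read from the lack of overlap.

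**Figure D2:**
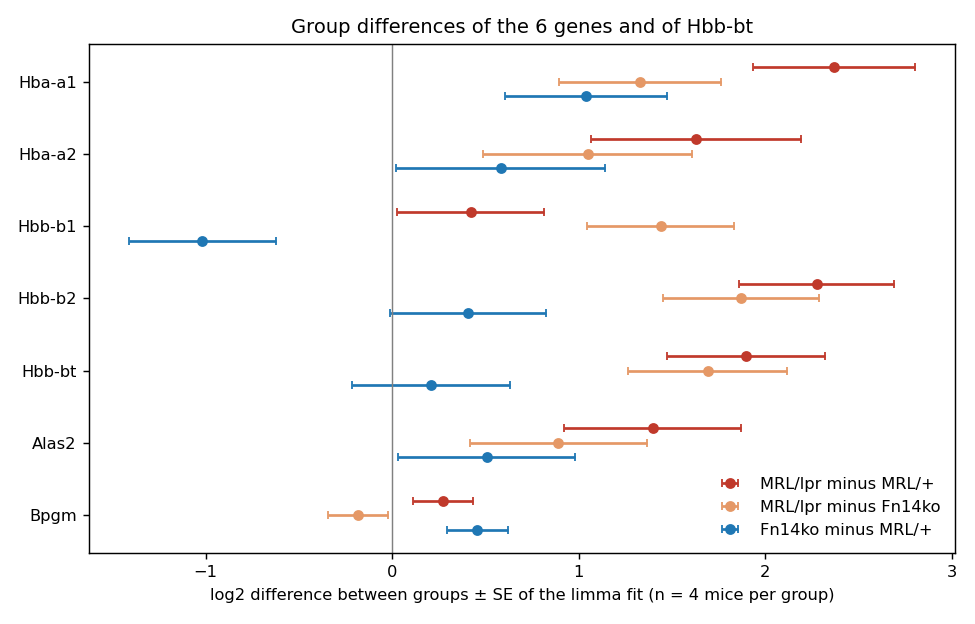
Log2 difference between groups (horizontal axis) with the SE of the limma fit (n = 4 mice per group) for the 6 genes and for Hbb-bt, in the 3 comparisons. MRL/lpr minus MRL/+ runs from 0.27 for Bpgm to 2.37 for Hba-a1, and Hbb-b1 is the only gene drawn here with Fn14ko below MRL/+ (-1.02).

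Ratios within a mouse show which genes moved together, since the amount of RNA and the scaling of the sample cancel in them. Each log2 ratio is given relative to its mean over the 12 mice. The ratio of beta globin Hbb-b2 to alpha globin Hba-a1 was 0.15 ± 0.081 (SD, n = 4) in MRL/lpr, 0.24 ± 0.271 in MRL/+ and -0.39 ± 0.458 in Fn14ko. Its range was narrowest in MRL/lpr (0.06 to 0.24), although Hba-a1 and Hbb-b2 themselves spanned 2.54-fold and 2.64-fold there. All 4 Fn14ko mice lay below all mice of both other groups for this ratio. The gap was narrow, with Fn14ko replicate 1 at -0.012 and MRL/+ replicate 2 at 0.026. The Cy5 Fn14ko mice had -1.008 and -0.469, and the Cy3 Fn14ko mice -0.012 and -0.077. With Hbb-bt as the beta globin the ratio to Hba-a1 overlapped between groups, at -0.92 to -0.20 in Fn14ko, -0.24 to 1.16 in MRL/+ and -0.205 to 0.085 in MRL/lpr. The ratio of Hbb-b1 to Hbb-b2 separated MRL/+ (0.65 to 1.51) from Fn14ko (-0.97 to 0.06) and MRL/lpr (-1.61 to -0.26), with no overlap. These are ratios of probes that both list Hbb-b1, so they do not compare 2 separate genes. The ratio of Bpgm to Hba-a1 was 0.89 ± 0.392 in MRL/+, 0.31 ± 0.696 in Fn14ko and -1.20 ± 0.539 in MRL/lpr, and all 4 MRL/lpr mice were below all other mice. Here too the gap was narrow, with MRL/lpr replicate 4 at -0.412 and Fn14ko replicate 3 at -0.368. Hba-a1 and Hbb-b2 belong to a set chosen for being higher in MRL/lpr. Low ratios to them in MRL/lpr therefore follow in part from the choice, and nothing is read from them. The ratios of Alas2 and of Hba-a2 to Hba-a1 followed the same order of groups as that of Bpgm in their means (0.50, -0.03 and -0.47 for Alas2, 0.40, -0.06 and -0.34 for Hba-a2), with overlap between groups.

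**Figure D3:**
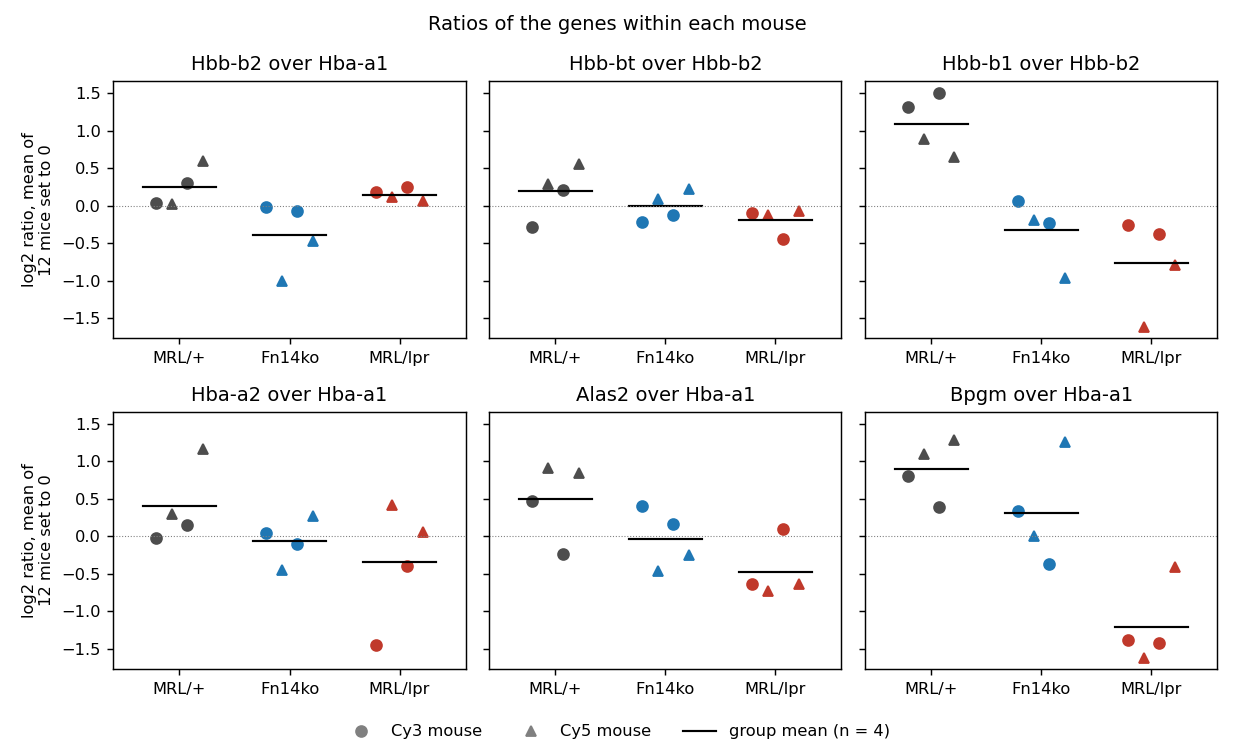
Log2 ratio of 2 genes within each mouse (vertical axis, with the mean of the 12 mice set to 0), by group, with circles for Cy3, triangles for Cy5 and a bar at the group mean (n = 4). Hbb-b1 over Hbb-b2 is highest in every MRL/+ mouse (0.65 to 1.51). Bpgm over Hba-a1 is lowest in every MRL/lpr mouse (mean -1.20), by a narrow gap (-0.412 in MRL/lpr replicate 4, -0.368 in Fn14ko replicate 3).

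Correlations over the 12 mice describe the same grouping, and the group differences are part of them, as are shared arrays and scaling. Hba-a1 and Hbb-b2 had Pearson r = 0.94 over 12 mice and 0.87 after the group means were removed. Hba-a1 and Alas2 had 0.87 and 0.74, and Hba-a1 and Hba-a2 had 0.84 and 0.59. Hbb-b1 followed Hbb-b2 more closely once group means were removed (0.64 before and 0.85 after). Hba-a2 followed Hbb-b1 least among the globins (0.30 and 0.197). Bpgm had 0.46 and 0.22 against Hba-a1, 0.46 and 0.49 against Hba-a2, 0.17 and -0.15 against Hbb-b2, 0.24 and -0.11 against Alas2, and -0.49 and -0.41 against Hbb-b1.

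Among the other 17296 genes, the 10 whose log2 signal was most like the mean of the 4 globin genes over the 12 mice were led by Hbb-bt (r = 0.96), a further adult beta globin. They went on with Dop1b (0.94), Etv4 (0.94), Brinp2 (0.94), Sh2b3 (0.93), Shkbp1 (0.93), Fcho1 (0.92), Slc25a37 (0.92), Map2k5 (0.92) and Crebzf (0.92). Slc25a37 is the mitochondrial iron importer of red cell precursors, and Sh2b3 is an adaptor protein of blood cell growth signals. Of the 10 genes only Hbb-bt and Slc25a37 are on the red cell lists used below. In all 21 genes had r over 0.9 and 271 over 0.8.

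Hbb-bt gave a further probe for beta globin. Its signal was 39.7, 55.9, 37.3 and 21.9 in the MRL/lpr mice, 10.9, 11.4, 19.9 and 6.77 in the Fn14ko mice, and 6.60, 7.85, 14.8 and 12.3 in the MRL/+ mice. All MRL/lpr mice were above all mice of both other groups, as for Hbb-b2, to which it had r = 0.98. MRL/lpr over MRL/+ was 1.90 ± 0.424 (limma adjusted p = 0.0125), MRL/lpr over Fn14ko 1.69 ± 0.424 (adjusted p = 0.0394), and Fn14ko over MRL/+ 0.21 ± 0.424 (adjusted p = 0.761). The first call was lost in 6 of 34 alternatives (highest adjusted p = 0.158), among them leaving out MRL/+ replicate 4 (adjusted p = 0.0715). The second was lost in 18 of 34 (highest adjusted p = 0.611), among them leaving out any 1 of MRL/lpr replicates 1 to 3, Fn14ko replicates 1, 2 or 4, or MRL/+ replicates 3 or 4. The difference itself ran from 1.44 to 2.495 over MRL/+ and from 1.33 to 2.05 over Fn14ko. These tests are not independent of the choice, since Hbb-bt is a globin of the same mice.

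The stretches upstream of these genes are shown for 2 globin genes, for Alas2, whose signal had r = 0.87 with Hba-a1 over the 12 mice, and for Bpgm, which had 0.46. RefSeq promoters of GRCm38.p6 were found for Hba-a1, Hba-a2, Alas2, Bpgm, Hbb-bs and Hbb-bt, and Hbb-b1 and Hbb-b2 are named only. The windows of Hba-a1 and Hba-a2 shared 297 of 300 bases in 1 run. The 4 short motifs searched on both strands of the 250 bases before each start were GATAA (bound by GATA factors), CACCC (bound by Klf factors), CCAAT and TATAA. They are found in 22.6%, 52.0%, 33.9% and 22.8% of all 32851 promoters of that length. All 4 motifs were present in Hba-a1, Hba-a2, Hbb-bs and Hbb-bt. Alas2 had no CCAAT and held the other motifs. Its TATAA matches on the 2 strands overlap each other. Bpgm held CCAAT only. A match is a description of these letters, not of binding. The 150 bases before the start are printed with every match in capitals, on the gene's own strand, at chr11:32283522-32283671 (plus) for Hba-a1, chr7:103813924-103814073 (minus) for Hbb-bt, chrX:150547267-150547416 (plus) for Alas2 and chr6:34476206-34476355 (plus) for Bpgm:
Hba-a1: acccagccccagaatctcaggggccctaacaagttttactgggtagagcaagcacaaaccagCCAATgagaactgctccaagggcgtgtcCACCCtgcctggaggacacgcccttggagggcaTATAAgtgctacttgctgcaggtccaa
Hbb-bt: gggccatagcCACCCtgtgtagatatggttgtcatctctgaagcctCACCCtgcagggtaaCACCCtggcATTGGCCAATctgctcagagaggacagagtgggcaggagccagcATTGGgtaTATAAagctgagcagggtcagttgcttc
Alas2: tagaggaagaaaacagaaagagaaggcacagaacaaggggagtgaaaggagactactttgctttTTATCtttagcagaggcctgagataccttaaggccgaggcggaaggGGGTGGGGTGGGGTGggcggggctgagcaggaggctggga
Bpgm: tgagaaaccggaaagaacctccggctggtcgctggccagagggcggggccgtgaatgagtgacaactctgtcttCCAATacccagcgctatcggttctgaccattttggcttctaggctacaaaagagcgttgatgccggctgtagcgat

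The GATAA match of Hba-a1 starts 182 bases before the start and that of Hbb-bt 204 bases before it, outside the printed stretch. In Alas2 the reverse-strand letters TTATC lie 86 bases before the start.

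Other genes of the red cell were taken from 5 lists with 66 genes, of which 64 were on the array and 45 were quantified. For MRL/lpr over MRL/+ limma called 5 of the 45 higher and 2 lower, where 6.03% and 8.37% of all genes were called. For MRL/lpr over Fn14ko 2 were higher and 0 lower, where 2.58% and 1.99% of all genes were called. For Fn14ko over MRL/+ 1 was higher and 0 lower, where 0.237% and 0.717% of all genes were called. The medians of the 45 were -0.05, -0.07 and 0.08 in these comparisons, beside -0.11, -0.07 and -0.10 over all genes. The genes that rose in MRL/lpr over MRL/+ were Hbb-bt, Ube2o (1.40 ± 0.431, adjusted p = 0.0469), a ubiquitin ligase of reticulocyte maturation, and Epb41 (1.199 ± 0.247, adjusted p = 0.00865), the membrane skeleton protein 4.1. Slc25a37 rose by 1.18 ± 0.245 (adjusted p = 0.0088) and Tmod1, which caps actin filaments of the membrane skeleton, by 0.84 ± 0.192 (adjusted p = 0.0137), with Tmod1 well above background in only 2 MRL/+ mice. Cat, the peroxide-splitting enzyme catalase, fell by 1.08 ± 0.20 (adjusted p = 0.0049). Hbq1a, a theta globin, fell by 1.45 ± 0.271 (adjusted p = 0.00529), but it was well above background in only 2 MRL/+ and 3 MRL/lpr mice. Dmtn, another protein of the membrane skeleton, was higher in MRL/lpr than in Fn14ko (0.74 ± 0.193, adjusted p = 0.0472). Epb41 was the gene higher in Fn14ko than in MRL/+ (1.24 ± 0.247, adjusted p = 0.0367). Apart from the globins, the genes named here are expressed in cells outside the red cell line too. Hbb-bt and Dmtn were the 2 genes called higher over Fn14ko. Without MRL/+ replicate 4, none of the 45 was called higher in MRL/lpr than in MRL/+ or in Fn14ko than in MRL/+. The share of all genes called in that fit is not given here.

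The 8 other enzymes of heme synthesis, from Alas1 to Fech, were all quantified and none passed the test in any of the 3 comparisons. Their log2 differences ran from -0.65 to 0.33 for MRL/lpr over MRL/+, where Alas2 had 1.40. Fech, which inserts iron into heme, had 0.12 ± 0.213 (adjusted p = 0.699), and Alas1, the housekeeping form, had -0.03 ± 0.271 (adjusted p = 0.951).

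Several defining markers of nucleated red cell precursors were at or near background. Gata1, Klf1, Ahsp, Rhag, Rhd, Kel and Trim10 were well above background in at most 1 mouse of any group. Slc4a1, the anion exchanger of the red cell membrane, was quantified and had -0.19 ± 0.536 for MRL/lpr over MRL/+ (adjusted p = 0.819). Tal1, an erythroid and endothelial transcription factor, had 1.72 ± 0.869 (adjusted p = 0.172), and the 2 mice of the first MRL/lpr array carried this value.

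**Figure D4:**
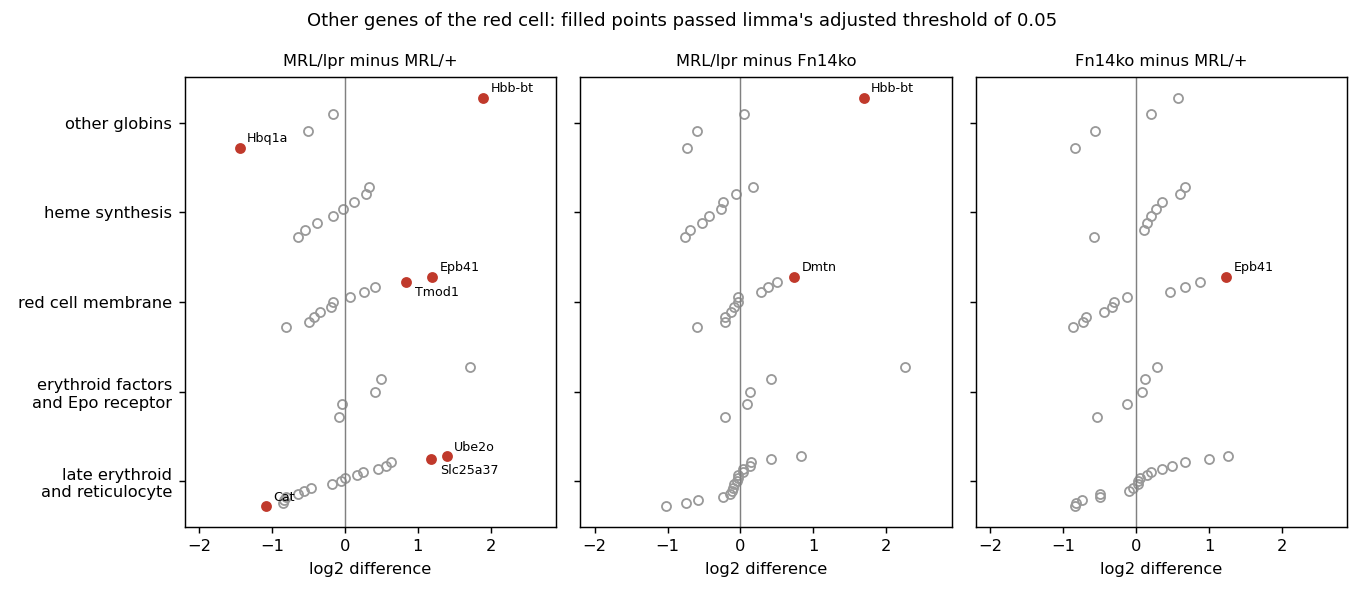
Log2 difference of the 45 quantified genes of 5 red cell lists (horizontal axis), with a panel for each comparison and filled points for genes that passed limma's adjusted threshold of 0.05. Points lie on both sides of 0 in every panel, with 5 filled points to the right and 2 to the left for MRL/lpr minus MRL/+.

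Other cells that blood or vessels bring into the tissue were read in the same mice. Of 9 platelet genes 3 were quantified, and their summed signal was 1.102 to 1.195 in MRL/lpr, 0.796 to 1.51 in Fn14ko and 0.948 to 2.02 in MRL/+, with none called. Of 12 lymphocyte genes 4 were quantified and none was called. Of 12 neutrophil genes 5 were quantified, and Elane and Ly6g exceeded their Fn14ko level in MRL/lpr by 0.97 ± 0.199 (adjusted p = 0.0144) and 1.51 ± 0.382 (adjusted p = 0.0409). Over all genes 2.58% were called higher there. The rest of the quantified neutrophil genes went the other way without a call (Lcn2 -1.19, S100a9 -0.41 and Camp -0.13). Elane was also lower in Fn14ko than in MRL/+ (-0.97 ± 0.199, adjusted p = 0.0404), and none was called between MRL/lpr and MRL/+. The platelet chemokine Ppbp and the neutrophil granule gene Ngp were well above background in no mouse. The neutrophil collagenase Mmp8, not quantified, was well above background in 4 MRL/lpr mice and 0 others, and the platelet collagen receptor Gp6 in 2 MRL/lpr mice and 0 others. Other unquantified genes of these lists were seen in more Fn14ko mice: the neutrophil enzyme Mpo was well above background in 4 Fn14ko, 1 MRL/+ and 0 MRL/lpr mice, the platelet glycoprotein Gp5 in 3, 2 and 1, and the B cell gene Cd79b in 4 Fn14ko, 0 MRL/+ and 1 MRL/lpr mice. Only 35.0% and 21.2% of all spots were well above background in MRL/+ replicates 2 and 4. In MRL/lpr 2355 spots were so on 1 array only. The share of all spots with the patterns of these genes was not counted, so no group difference is read from them. Of 8 monocyte genes 3 were quantified, and their summed signal was 6.43 to 9.61 in MRL/lpr, 7.93 to 9.84 in Fn14ko and 2.31 to 4.81 in MRL/+, so MRL/+ lay below both other groups. Ly6c1, which endothelium also expresses, was higher than in MRL/+ by 1.47 ± 0.301 in MRL/lpr (adjusted p = 0.00827) and by 1.49 ± 0.301 in Fn14ko (adjusted p = 0.0393), while Chil3 fell in MRL/lpr (-1.27 ± 0.305, adjusted p = 0.017). The part of blood cells other than red cells in the globin values was not tested.

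The summed signal of the endothelial list had the same order of groups as the alpha globins, but not every gene of the list did. Its 12 genes were all quantified, and their summed signal was 26.6 to 29.6 in MRL/lpr, 20.4 to 26.2 in Fn14ko and 15.5 to 17.8 in MRL/+, with no overlap between groups. Flt1, Esam, Slco1a4 and Ly6a passed the test as higher in MRL/lpr, by 0.98 to 1.55 over MRL/+, and the last 3 of them also in Fn14ko over MRL/+. The defining gene Cldn5, a tight junction protein, had 0.80 ± 0.293 (adjusted p = 0.0824), and Pecam1 had -0.24 ± 0.279 (adjusted p = 0.546). Of 10 mural cell genes 9 were quantified, with sums of 22.7 to 31.5 in MRL/lpr, 17.8 to 40.3 in Fn14ko and 14.5 to 21.9 in MRL/+. Pdgfrb (0.61 ± 0.168, adjusted p = 0.031) and Vtn (1.165 ± 0.34, adjusted p = 0.0384) were called higher and Cspg4 (-0.585 ± 0.169, adjusted p = 0.0368) lower in MRL/lpr against MRL/+. The part of vessel content in the globin values was not tested. Genes that take up free hemoglobin and break down heme gave no call among 9 quantified. Haptoglobin (Hp) had -1.24 ± 0.553 (adjusted p = 0.133) and heme oxygenase Hmox1 -0.35 ± 0.236 (adjusted p = 0.29) for MRL/lpr over MRL/+. The heme-binding protein hemopexin (Hpx) had 1.52 ± 1.152 (adjusted p = 0.345), and the hemoglobin receptor Cd163 was well above background in no mouse. Among 12 quantified genes of glycolysis, the pathway from which Bpgm branches, Pfkl and Pgam2 fell in MRL/lpr against MRL/+ (-1.05 ± 0.173, adjusted p = 0.00265, and -0.996 ± 0.228, adjusted p = 0.0137). Pfkl was also lower in MRL/lpr than in Fn14ko (-0.76 ± 0.173, adjusted p = 0.024), and none was called in Fn14ko over MRL/+.

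**Figure D5:**
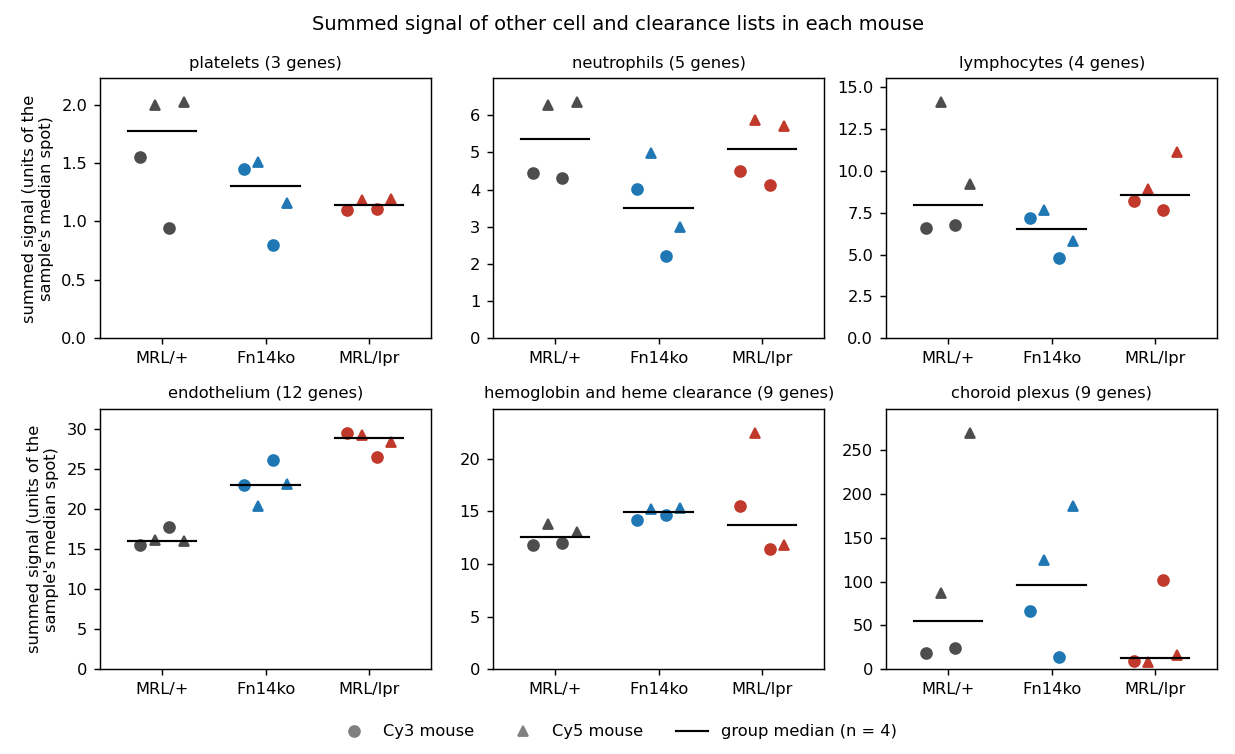
Summed signal of the quantified genes of 6 lists in each mouse (vertical axis from 0, in units of the sample's median spot), with circles for Cy3, triangles for Cy5 and a bar at the group median (n = 4). The endothelial sums rise from 15.5 to 17.8 in MRL/+ to 26.6 to 29.6 in MRL/lpr without overlap, and the choroid plexus sums run from 7.74 to 270 across the mice.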

How the data were processed

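Agilent 2-colour arrays (60-base probes, mm9) were scanned and read by the authors with Agilent Feature Extraction 12.1.0.3. The deposited values used here are foreground and local background intensities per spot and dye, and the marks of the file headers for uneven, outlying, saturated or dim spots. Of 44397 spots, 43020 were non-control, 1952 were left out as marked and 17781 because foreground was under 2 times background in at least 1 mouse (a spot could be both), which left 24255 spots and 17302 genes. Intensities were corrected with normexp (offset 50), divided by each sample's median kept spot and put on the log2 scale, and probes of a gene were averaged before the log. limma 3.58.1 (R 4.3.3, Python 3.11.15) fitted all 12 mice with group and dye, array as a random block, and Benjamini-Hochberg adjustment at 0.05, after a test on simulated data with 200 changed genes. The precision is limited by 4 mice per group. The methods' t-test, 14 other settings, leaving out each mouse or array, and 1 setting chosen after seeing the data were tried. Named genes were the 6 genes, every list gene past the threshold (up to 5 a list, plus well-known ones), and the 10 genes most like the globin mean. The genes and lists were chosen with earlier results of these data known. Same-numbered replicates were not taken as pairs.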

Additional observations from a re-analysis of the deposited data

Results flagged for a closer look

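Epb41 was far lower in MRL/lpr replicate 4 than in the other 3 MRL/lpr mice, a gap of 0.835 of the group's range. Of 66 groups of named genes examined in this way, about 1 in 20 would stand out by chance.

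Several red cell probes that were too dim or uneven to be quantified were well above background in MRL/lpr mice and in 0 MRL/+ mice. The embryonic globin Hba-x had a foreground at least 902 times the local background in the 2 mice of the first MRL/lpr array, where its spot was marked as uneven in both, and near background on the second array. In the 2 mice of the second MRL/lpr array, embryonic globins Hbb-bh1 and Hbb-y were at least 9.65 and 3.33 times background, Nfe2 at least 3.3 times and Trim58 at least 4.73 times. Epb42 was at least 3.49 times background in the 2 mice of the first array. One probe of Cpox (at least 4.59 times) and one of Epb41 (at least 4.45 times) were above background in all 4 MRL/lpr mice. In the Cy5 MRL/+ mice, where none was well above background, the multiples reached 4.94 for Hba-x, 3.76 for Hbb-bh1, 4.45 for Hbb-y, 3.08 for Nfe2, 3.45 for Trim58, 4.36 for Epb42, 3.32 for Cpox and 4.38 for Epb41. For Hbb-y, Nfe2, Epb42 and Epb41 this was close to or above the lowest MRL/lpr multiple given above, which came from a Cy5 mouse. The Cy3 mice lay further apart for these probes. Cy3 MRL/lpr mice well above background had at least 6.04 times background, and Cy3 MRL/+ mice at most 1.58 times. Apart from Cpox and Epb41, each of these MRL/lpr signals came from 1 array of the group only, and it was not tested whether they come from the array or from the mice.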

How the results depend on the processing

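No difference of the 6 genes between Fn14ko and MRL/+ changed direction under the alternatives fitted to all genes, but Alas2 turned to -0.08 within the Cy5 mice alone. Values, calls and counts moved, and the cause was not tested. Over those alternatives the difference ran from 0.54 to 1.77 for Hba-a1, 0.27 to 1.31 for Hba-a2, -1.31 to -0.29 for Hbb-b1, 0.12 to 1.13 for Hbb-b2, 0.21 to 1.23 for Alas2 and 0.086 to 1.18 for Bpgm. Hbb-b1 passed in Fn14ko against MRL/+ with plain background subtraction (-1.14, adjusted p = 0.0326), capped local background (-1.10, adjusted p = 0.043) and only spots well above background in all mice (-1.25, adjusted p = 0.0388; Alas2 not included). Bpgm passed without the array block (0.46, adjusted p = 0.0434). With a replicate block in place of the dye term, Hba-a1 (1.04, adjusted p = 0.0295) and Hbb-b1 (-1.02, adjusted p = 0.0445) passed. Same-numbered mice of Fn14ko and MRL/+ deviated with r = 0.22, 0.57, 0.72 and -0.03, and those of other group pairs with -0.13 to 0.34, so the numbers were not taken as pairs. Adjusted p ran from 0.0295 to 0.902 for Hba-a1, 0.0326 to 0.858 for Hbb-b1 and 0.0434 to 0.809 for Bpgm. The globin median of MRL/lpr over MRL/+ was 1.46 with Agilent's processed signal and 2.55 without the dim filter. Bpgm in MRL/lpr over MRL/+ turned to -0.15 with the processed signal and -0.04 with loess and quantile normalization. Scaling by the 75th percentile moved the median of all genes there to -0.34 and the calls to 708 higher and 2260 lower, from 1044 and 1448. Calls over all genes thus moved with this setting too. The counts of red cell genes below are given without the share of all genes called under each setting. Nothing particular to red cell genes is read from them.

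Leaving out 1 mouse or 1 array gave Fn14ko over MRL/+ 0.74 to 1.33 for Hba-a1, 0.27 to 0.89 for Hba-a2, -1.31 to -0.64 for Hbb-b1, 0.12 to 0.70 for Hbb-b2, 0.21 to 0.86 for Alas2 and 0.39 to 0.51 for Bpgm, and globin medians of 1.52 to 2.30 over MRL/+ and 1.05 to 1.66 over Fn14ko.

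Among the 45 red cell genes, MRL/lpr over MRL/+ had 9 higher and 6 lower with background subtraction, 8 and 4 with capped background or the unadjusted t-test, 3 and 6 with the processed signal, 8 and 5 with loess and quantile normalization, 0 and 0 without the dim filter or by the adjusted t-test, 1 and 4 with bright spots only, 10 and 5 without the array block, 10 and 6 with the replicate block, 3 and 4 in Cy3 mice, and 5 lower with the 75th percentile. Over Fn14ko, 4 were lower with background subtraction, capped background or loess and quantile, 3 with the processed signal or bright spots, 2 with the 75th percentile or no array block, and 1 with the replicate block; 0 were higher without the dim filter, with marked spots or in Cy3 mice, 1 with log2-merged probes, 1 higher and 1 lower with these groups only, and 4 and 8 (0 and 1 adjusted) by t-test. Fn14ko over MRL/+ had 5 and 4 with background subtraction or the unadjusted t-test, 5 and 2 with capped background, 3 and 2 with loess and quantile or the replicate block, 7 and 2 without the array block, 0 and 2 with bright spots, 0 higher without the dim filter or by adjusted t-test, 2 higher in Cy3 mice or with these groups only, 2 lower with the processed signal, and 1 lower with the 75th percentile, merged probes or no dye term.

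Leaving out 1 mouse, MRL/lpr over MRL/+ had 0 (without MRL/+ replicate 4) to 7 higher and 2 to 7 lower (7 without MRL/+ replicate 3). Over Fn14ko 0 to 2 were higher, with 0 without MRL/lpr replicates 1 or 3 or Fn14ko replicates 1 or 2. Fn14ko over MRL/+ had 0 to 5 higher (0 without Fn14ko replicates 2 or 3 or MRL/+ replicate 4) and 0 to 2 lower. Without the first array of MRL/lpr or MRL/+ 3 were higher over MRL/+, and without 1 array the other comparisons had 0 to 2 higher and 0 to 1 lower. Without both Cy5 mice of MRL/+ (chosen after seeing the data) 1 was higher in MRL/lpr and 0 in Fn14ko.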
